A study of Rattus norvegicus with 30 samples.

Results

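The question addressed here is whether the effect of a high dose of beta-naphthoflavone (BNF) on rat hepatocytes was the same after 24 and 48 h of exposure. For each gene, the log2 fold of 100 uM BNF over its own vehicle was taken at each time, and the 24 h value was subtracted from the 48 h value. This quantity is called the time difference below: a positive value means that the effect lay higher at 48 h than at 24 h, and a negative value that it lay lower. It rests on 20 of the 30 arrays of the study and was tested in 14217 genes, each represented by 1 probe set. A gene was called when limma's adjusted p (Benjamini-Hochberg over all genes) was below 0.05. By that rule 112 genes were called.

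The cells were frozen primary hepatocytes of male Sprague Dawley rats, bought from a supplier, plated on collagen under a Matrigel overlay and dosed on the third day of culture. The 4 groups of 5 arrays that enter the time difference were 1% DMSO for 24 h, 1% DMSO for 48 h, 100 uM BNF for 24 h and 100 uM BNF for 48 h. A lower dose, 1 uM BNF for 24 and 48 h with 5 arrays at each time, is used for comparison. Array numbers within a group follow the accessions, and the labels give them no meaning. Arrays with the same number in different groups come from 1 run of 6 consecutive numbers in the titles. The main fit did not use these runs as a block. Each array came from a separate well, and the labels tie no well to an animal, so p-values measure the spread between wells. BNF was 1 of several compounds studied at different times, and the other compounds are not analysed here. Hepatocytes outside the liver lose part of their differentiated expression with time, and both the vehicle and the treated wells aged between the sampling times.

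BNF binds the aryl hydrocarbon receptor (AhR), which moves to the nucleus, pairs with ARNT and binds DNA at elements with the core GCGTG. Its best known targets in liver are the cytochromes P450 Cyp1a1, Cyp1a2 and Cyp1b1, which oxidise flat aromatic compounds. Several of the enzymes induced with them, such as Nqo1, are shared with NRF2, the factor that answers oxidative and electrophilic stress. The induction of P450s by AhR ligands is followed in many cells by repression through Ahrr and Tiparp, which AhR itself induces.

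At each time taken alone, technical measures did not separate the treated from the vehicle arrays beyond their spread. Of 8 exact two-sided permutation tests of median signal, signal spread and the 3' to 5' ratio of the Gapdh and beta-actin control probes between 100 uM BNF and vehicle, the smallest p was 0.103 (adjusted 0.339), where 0.00794 is the smallest such a test can give. No array stood apart in its mean over all genes: the mean absolute log2 deviation from the group mean lay between 0.240 and 0.294 for every array. Such a mean can miss an array that departs in some genes only. Vehicle 48 h array 5 lay far from its group in Cited2, Depp1 and Fam149a, as described below. Without that array 154 genes were called for the time difference, against 112 with all arrays. The hepatocyte label was borne out by 11 measured markers of 12, which lay between the 68.5th percentile of all genes (Cyp3a2) and the 99.96th (Alb).

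Between the times, a change of the 100 uM BNF effect was called in few genes, and in most of these it was modest. The 112 called genes were 0.788% of the genes tested, with 54 higher at 48 h (0.380%) and 58 lower (0.408%). With each array centred on its median signal, 47 genes were called, 29 higher and 18 lower. Without adjustment, 1645 genes had p below 0.05. The median size of the time difference among the called genes was 0.47 on the log2 scale, and 11 genes reached 2-fold, 5 higher and 6 lower. All 5 of those higher (Akr1c15, Rad54l2, Bdh1, Cbarp and Nup133) had signals below the median of all genes, as did Calcb among those lower. The other 5 lower by at least 2-fold were Crp, Cd36, Ugt2b, Rdh7 and Cd9.

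Calls of the effects themselves were far more widespread than calls of their difference. The difference is less precise (median SE 0.20 on the log2 scale, against 0.14 for each effect), so a gene not called is not shown to be unchanged. At 24 h, 21.1% of all genes were called for 100 uM BNF against vehicle (10.7% higher and 10.4% lower), and at 48 h 17.4% (8.79% higher and 8.62% lower). With median centring the 24 h calls were 655 higher and 1486 lower, so the balance of directions at that time depends on the scaling. Of the 112 genes, 88 were called at 24 h and 77 at 48 h. These comparisons use the same arrays as the time difference, so the counts describe the form of the difference and are not separate evidence for it. The effect was larger in size at 48 h in 63 genes and at 24 h in 49.

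**Figure D1:**
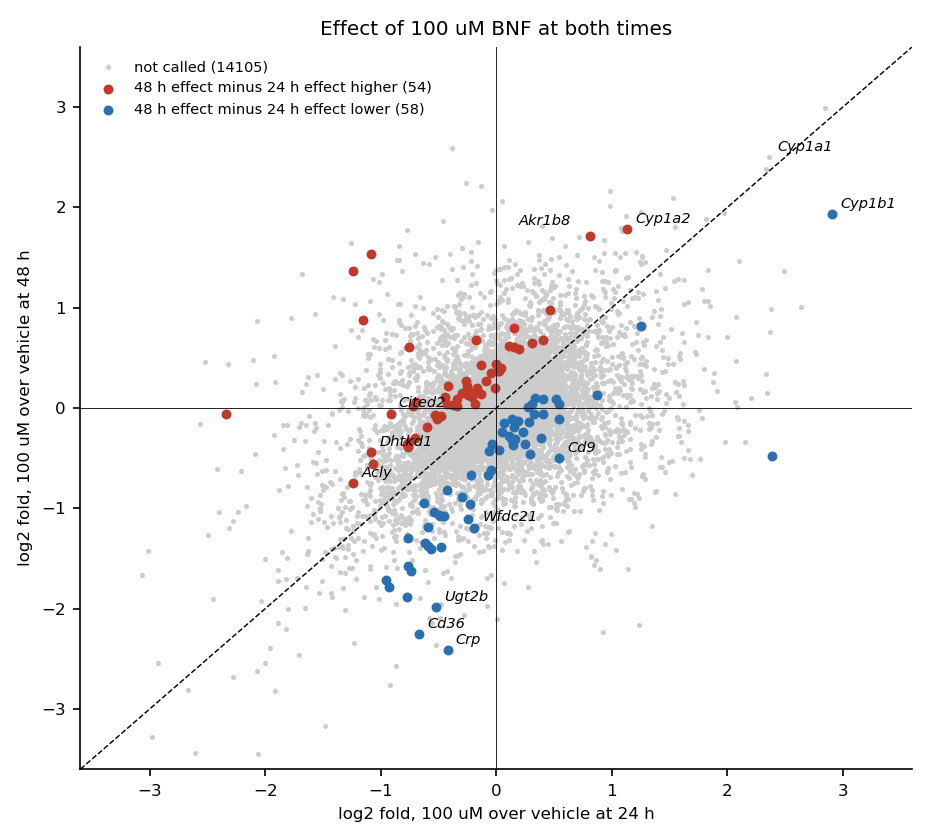
Log2 fold of 100 uM BNF over vehicle at 24 h (horizontal) against 48 h (vertical) for the genes tested, with the 54 genes called higher at 48 h in red, the 58 called lower in blue and the rest in grey. The dashed line marks equal effects; blue genes lie below it, with Crp, Cd36 and Ugt2b lowest, and 3 genes lie outside the axes.

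The 112 genes fell into a small number of forms. The most frequent was repression at both times, in 32 genes, and in 24 of these the repression was deeper at 48 h, as for Ugt2b, Crp, Rdh7 and Sult1a1. Repression called at 24 h and not at 48 h came next with 21 genes, among them Cited2, Aldh4a1, Tmem120a and Zfp612. Induction called at 24 h and not at 48 h was seen in 14 genes, including Sprr1a, Erg28 and Hebp2. Effects called only at 48 h were upward in 13 genes, including Fetub and Abcc3, and downward in 11, including Cebpd and Por. Both effects were upward in 8 genes, with Akr1b8 and Gclc rising further and Cyp1b1 and Ceacam1 rising less. In 13 genes the effect was called in opposite directions at the 2 times, from higher to lower in 7 (Cd9, Exoc1, Glrx2 and Cd14 among them) and from lower to higher in 6 (Aldh1l1 among them). The other probe sets of Exoc1 gave time differences of 0.94, 0.30 and 0.13, none called, against -0.75 for the one used.

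The AhR battery was the group in which BNF acted most strongly, and for 6 of its 8 measured members no time difference was called. Of 10 genes on this list 8 were measured, 6 were called higher at 24 h and 5 at 48 h, against 10.7% and 8.79% of all genes. Only Cyp1b1 (lower) and Cyp1a2 (higher) had a called time difference, against 0.788% of all genes. The list's median effect was 1.41 at 24 h and 1.13 at 48 h on the log2 scale, beside 0.042 and 0.017 over all genes.

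The sequences before the start of these genes are shown because Cyp1b1 and Cyp1a2 moved in opposite directions, and Gclc and Akr1b8, which are described with the NRF2 targets below, rose further at 48 h. They are the 250 bases before the RefSeq start on GRCr8, written 5' to 3' on the strand of the gene, with each GCGTG or its reverse complement CACGC in capitals. The windows are chr6:21094315-21094564 (plus strand) for Cyp1b1, chr8:66978150-66978399 (minus strand) for Cyp1a2, chr8:87510226-87510475 (plus strand) for Gclc and chr4:63964171-63964420 (plus strand) for Akr1b8.
Cyp1b1: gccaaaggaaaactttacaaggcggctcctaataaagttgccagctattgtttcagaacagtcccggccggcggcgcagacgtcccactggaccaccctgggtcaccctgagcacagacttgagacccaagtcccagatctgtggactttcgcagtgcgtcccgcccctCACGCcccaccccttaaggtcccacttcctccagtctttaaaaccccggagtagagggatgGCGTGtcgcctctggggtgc
Cyp1a2: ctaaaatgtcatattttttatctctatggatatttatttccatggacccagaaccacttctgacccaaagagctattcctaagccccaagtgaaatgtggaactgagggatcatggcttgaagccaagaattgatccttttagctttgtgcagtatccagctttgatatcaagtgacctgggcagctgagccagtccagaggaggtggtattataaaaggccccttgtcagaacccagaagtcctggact
Gclc: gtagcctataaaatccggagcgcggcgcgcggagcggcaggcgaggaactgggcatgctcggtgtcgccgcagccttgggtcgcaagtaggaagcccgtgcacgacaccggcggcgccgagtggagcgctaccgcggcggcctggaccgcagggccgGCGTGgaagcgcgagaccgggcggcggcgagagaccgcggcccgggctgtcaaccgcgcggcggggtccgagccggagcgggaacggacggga
Akr1b8: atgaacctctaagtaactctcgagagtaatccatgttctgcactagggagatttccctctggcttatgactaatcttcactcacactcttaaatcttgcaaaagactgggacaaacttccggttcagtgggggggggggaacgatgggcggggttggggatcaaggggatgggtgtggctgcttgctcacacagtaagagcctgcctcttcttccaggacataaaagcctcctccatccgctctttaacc

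The window of Cyp1b1 held 2 matches, starting 81 and 20 bases before the start, that of Gclc held 1, starting 93 bases before it, and those of Cyp1a2 and Akr1b8 held 0. Over all 11700 tested genes with a window, 40.9% held at least 1 match on either strand, against 38.6% of the 44 genes called higher and 38.5% of the 52 called lower that had one. The antioxidant response element core TGACNNNGC, searched on both strands in the same windows, was found in 12.3% of all genes, in 2 of the 44 called higher (Akr1c15 and Slc41a2) and in 6 of the 52 called lower (Ceacam1, Fkbp11, Ptprs, Rpn1, Scd and Sprr1a). It was not in the 4 windows shown. The windows are short and a match is only a match of letters. RefSeq gives several starts for 782 of these genes, and the one farthest upstream was used.

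Cyp1b1, a P450 of the same family that acts on polycyclic hydrocarbons and steroids, was induced less at 48 h than at 24 h. In vehicle its signal was 513, 690, 352, 609 and 542 at 24 h and 522, 937, 661, 675 and 536 at 48 h. In 100 uM BNF it was 4081, 4254, 4397, 3736 and 3411 at 24 h and 3092, 2374, 2141, 2485 and 2441 at 48 h. All treated arrays lay above all vehicle arrays at both times, and each treated array at 48 h lay below each at 24 h, while the vehicle arrays overlapped between times. The induction was 7.50-fold at 24 h and 3.82-fold at 48 h, a time difference of -0.97 on the log2 scale (SE 0.24, adjusted p = 0.0387).

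Cyp1a2, the main hepatic enzyme of caffeine and arylamine oxidation, was induced more at 48 h, against a vehicle level that had dropped steeply. Its vehicle signal was 12700, 12748, 9837, 11301 and 13066 at 24 h and 3488, 2486, 3434, 3293 and 4170 at 48 h. Under 100 uM BNF it was 27182, 28055, 28790, 21772 and 24615 at 24 h and 8961, 13333, 11258, 11224 and 13174 at 48 h. The treated arrays thus also lay lower at 48 h than at 24 h, without overlap, by 2.26-fold against 3.56-fold in vehicle. The induction was 2.19-fold at 24 h and 3.45-fold at 48 h (time difference 0.66, SE 0.16, adjusted p = 0.0423).

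Both P450 calls are close to the threshold and depended on single arrays. Leaving out any of 14 of the 20 arrays ended the call of Cyp1b1 (adjusted p 0.0530 to 0.0780): it held only without vehicle 24 h arrays 2 or 4, vehicle 48 h arrays 1 or 5, 100 uM 24 h array 5 or 100 uM 48 h array 1. For Cyp1a2 likewise 14 arrays each ended the call (adjusted p 0.0521 to 0.0946), and it held only without vehicle 24 h arrays 3 or 4, vehicle 48 h array 5, 100 uM 24 h arrays 2 or 3 or 100 uM 48 h array 1. With median centring the adjusted p was 0.0818 for Cyp1b1 and 0.0721 for Cyp1a2.

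Cyp1a1, the AhR target that oxidises polycyclic aromatic compounds, was induced at both times and had no called time difference. Vehicle arrays read 11751, 15657, 7573, 13897 and 10283 at 24 h and 11080, 6211, 7444, 6523 and 16365 at 48 h. Arrays of 100 uM BNF read 51978, 74156, 53819, 55858 and 61105 at 24 h and 38665, 55182, 53916, 52142 and 53730 at 48 h. The treated and vehicle arrays did not overlap at either time, and the vehicle arrays varied by more than 2-fold among themselves. BNF raised it 5.13-fold at 24 h and 5.68-fold at 48 h. The time difference was 0.15 with a 95% interval from -0.44 to 0.73 (adjusted p = 0.900). Nqo1, a quinone reductase, was induced 1.84-fold and 1.71-fold (time difference -0.10, 95% interval -0.29 to 0.09). Tiparp, a feedback inhibitor of AhR, was induced 3.09-fold and 2.42-fold (time difference -0.35, adjusted p = 0.144), and was called with the mean of its probe sets (adjusted p = 0.0364). Aldh3a1, an aldehyde dehydrogenase, and Ahrr, the AhR repressor, had dim signals and wide errors, with time differences of -1.39 (SE 0.52, adjusted p = 0.253) and -2.19 (SE 1.04, adjusted p = 0.418). Cyp2s1 was not called at either time. None of the 8 measured members of the receptor complex had a called time difference.

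**Figure D2:**
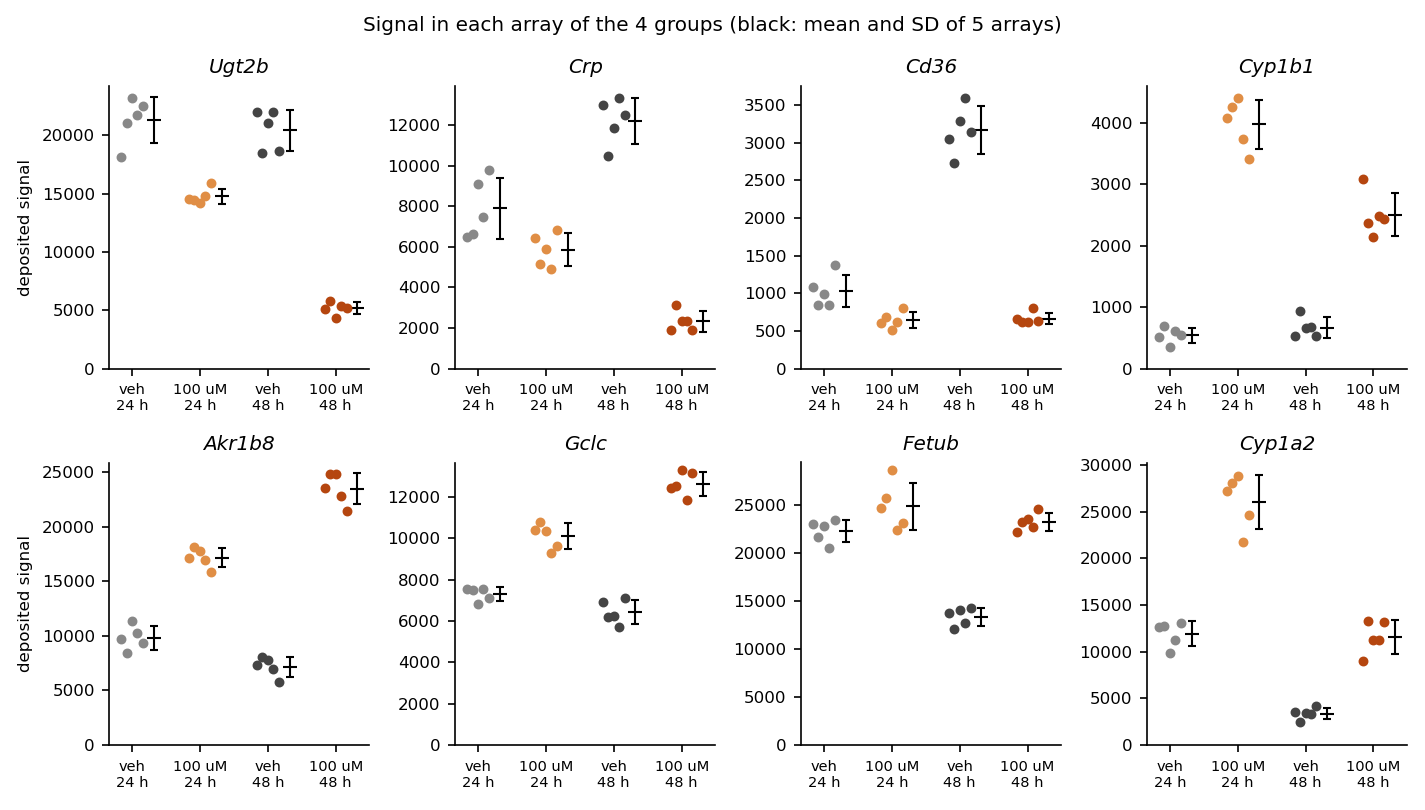
Deposited signal of 8 genes in each array of vehicle and 100 uM BNF at 24 and 48 h, with the mean and SD of the 5 arrays in black. In the upper row the treated arrays at 48 h lie farther below vehicle than at 24 h for Ugt2b, Crp and Cd36, and Cyp1b1 is less induced; in the lower row Akr1b8, Gclc, Fetub and Cyp1a2 lie farther above vehicle at 48 h.

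NRF2 targets were the list with the most genes called higher. Of 21 measured members 4 had a higher time difference (Akr1b8, Gclc, Abcc3 and Pgd) and 0 a lower one, against 0.380% of all genes higher. The median time difference of the list was 0.094, beside -0.015 for all genes, and its median effect was 0.33 at 24 h and 0.49 at 48 h. At 24 h 13 of the 21 were called higher and 1 lower, against 10.7% of all genes higher, and at 48 h 15 higher and 1 lower, against 8.79% higher.

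Akr1b8, an aldo-keto reductase that clears reactive aldehydes, had the smallest adjusted p of all genes with a higher time difference. Its vehicle signal was 9718, 8402, 11378, 10297 and 9323 at 24 h and 7320, 8041, 7749, 6988 and 5746 at 48 h. With 100 uM BNF it was 17109, 18139, 17821, 16971 and 15823 at 24 h and 23569, 24859, 24798, 22845 and 21419 at 48 h. The gene moved in opposite directions over time in the 2 conditions, and no group overlapped another. The induction was 1.76-fold at 24 h and 3.29-fold at 48 h (time difference 0.91, SE 0.11, adjusted p = 3.79e-06).

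Gclc, the catalytic subunit of the enzyme that starts glutathione synthesis, had vehicle signals of 7554, 7511, 6837, 7527 and 7089 at 24 h and 6906, 6212, 6235, 5725 and 7132 at 48 h. In 100 uM BNF its signals were 10416, 10788, 10358, 9279 and 9612 at 24 h and 12431, 12510, 13281, 11837 and 13132 at 48 h. Every treated array lay above every vehicle array, and the treated arrays at 48 h all lay above those at 24 h. The induction was 1.38-fold and 1.97-fold (time difference 0.51, SE 0.09, adjusted p = 0.00110). A second probe set of Gclc gave 0.28 without a call, and with the mean of both the adjusted p was 0.0672. Abcc3, an efflux pump of bile acid and drug conjugates, had a time difference of 0.51 (adjusted p = 0.0267), and Pgd, an NADPH-forming enzyme of the pentose phosphate pathway, of 0.28 (adjusted p = 0.0319).

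The call of Abcc3 ended without any 1 of 8 arrays (vehicle 24 h 4 or 5, vehicle 48 h 3 or 4, 100 uM 24 h 1 or 3, 100 uM 48 h 1 or 5; adjusted p 0.0502 to 0.0616). That of Pgd ended without any 1 of 9 (vehicle 24 h 1 or 5, vehicle 48 h 3 or 4, 100 uM 24 h 1, 2 or 4, 100 uM 48 h 1 or 5; adjusted p 0.0517 to 0.0782), with median centring (0.0886) and with quantile normalization (0.0699).

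Conjugation enzymes held the gene with the smallest adjusted p of all. Ugt2b, a glucuronosyltransferase that conjugates steroids and drugs, had vehicle signals of 18135, 21057, 23165, 21742 and 22518 at 24 h and 21962, 18454, 21028, 21989 and 18662 at 48 h. With 100 uM BNF its signals were 14511, 14440, 14231, 14829 and 15881 at 24 h and 5129, 5761, 4373, 5368 and 5149 at 48 h. The vehicle arrays overlapped between times, while the treated arrays at 48 h all lay far below those at 24 h. The gene was 1.44-fold lower than vehicle at 24 h and 3.96-fold lower at 48 h (time difference -1.46, SE 0.11, adjusted p = 4.33e-10). Its second, dimmer probe set gave -1.73. Glucuronosyltransferases of this family are closely related, and these probe sets may not tell all of them apart.

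Sult1a1, the phenol sulfotransferase, was 1.90-fold lower than vehicle at 24 h and 3.44-fold lower at 48 h (time difference -0.86, SE 0.12, adjusted p = 0.000130). Its signal lay between 70660 and 79868 in vehicle and 34909 and 42643 in 100 uM BNF at 24 h, and between 58282 and 74474 and 14727 and 22162 at 48 h, so the groups did not overlap at either time. These were 2 of 25 measured phase II genes called lower, against 0.408% of all genes, and 0 were called higher. Por, the reductase that passes electrons to all microsomal P450s, was the 1 gene called among 13 targets of CAR and PXR, nuclear receptors that sense drugs, at -0.59 (adjusted p = 0.00750). None of 9 sex-dependent P450s was called, although their median fell by 1.07 from 24 to 48 h in vehicle and by 1.34 in 100 uM BNF.

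Acute phase proteins are made by hepatocytes under the control of interleukin 6, STAT3 and C/EBP factors. Of 23 measured members 3 had a lower time difference (Crp, Serpina3n and Itih4) and 0 a higher one, against 0.408% of all genes lower, and the list's median was -0.19. Crp, the C-reactive protein, showed the most negative time difference of the called genes with signals above the median. In vehicle its signal was 6459, 6645, 9074, 7456 and 9797 at 24 h and 12961, 10458, 11832, 13342 and 12467 at 48 h. In 100 uM BNF it was 6455, 5164, 5901, 4917 and 6819 at 24 h and 1895, 3148, 2324, 2336 and 1907 at 48 h. Vehicle and treated arrays overlapped at 24 h and lay far apart at 48 h, since the gene rose over time in vehicle and fell under BNF. It was 1.34-fold lower than vehicle at 24 h and 5.33-fold lower at 48 h (time difference -1.99, SE 0.18, adjusted p = 1.05e-08).

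Serpina3n, a protease inhibitor of the acute phase, went from 1.94-fold to 3.29-fold below vehicle (time difference -0.76, adjusted p = 0.000275). Cebpd, a C/EBP factor and itself an acute phase gene, was the 1 called member of 23 liver-enriched transcription factors, against 0.408% of all genes called lower. Its signal in vehicle was 1319, 1582, 1370, 1697 and 1517 at 24 h and 1832, 1955, 2154, 2261 and 1656 at 48 h, and in 100 uM BNF 1562, 1067, 1142, 1393 and 1202 at 24 h and 831, 969, 912, 957 and 893 at 48 h. The groups overlapped at 24 h and not at 48 h (time difference -0.86, SE 0.13, adjusted p = 0.000251), and 2 other probe sets of Cebpd gave -0.94 and -1.34. For Itih4, an inhibitor heavy chain, the time difference was -0.32 (adjusted p = 0.0423). That call ended without any of 13 arrays (adjusted p 0.0591 to 0.0822), holding only without vehicle 24 h 4 or 5, vehicle 48 h 2 or 3, 100 uM 24 h 5 or 100 uM 48 h 2 or 5, and with median centring (0.438).

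Lipid handling genes moved in both directions, where 0.380% of all genes were called higher and 0.408% lower. Cd36, a fatty acid transporter and PPAR target, was called over time in vehicle only, as were 33 of the 112 called genes. Its vehicle signal was 1088, 849, 984, 850 and 1373 at 24 h and 3056, 2728, 3294, 3599 and 3147 at 48 h. Under 100 uM BNF it was 609, 690, 507, 617 and 805 at 24 h and 653, 615, 621, 803 and 628 at 48 h. The vehicle arrays at 48 h lay above all others, while the treated arrays overlapped between times. In vehicle the gene rose 3.11-fold, so that BNF was 1.59-fold below vehicle at 24 h and 4.77-fold at 48 h (time difference -1.59, SE 0.18, adjusted p = 2.11e-06). Its probe set is marked as matching several transcripts.

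Rbp7, a retinol carrier, showed the same form, with a rise of 0.81 on the log2 scale in vehicle and -0.08 under BNF (time difference -0.89, adjusted p = 0.00661). Fabp1, the liver fatty acid binding protein, was the other called gene of 28 measured in fatty acid oxidation and PPARA targets (time difference -0.81, adjusted p = 0.0179); 22 of these 28 were called lower at 24 h and 18 at 48 h, against 10.4% and 8.62% of all genes. Scd, the desaturase that makes monounsaturated fatty acids, went from 1.53-fold to 2.55-fold below vehicle (time difference -0.74, adjusted p = 0.00217).

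Acly, which makes cytosolic acetyl-CoA for lipid synthesis, did the opposite. Its signal was 15747, 16877, 16642, 18454 and 17321 in vehicle and 7144, 7243, 7142, 7129 and 7358 in 100 uM BNF at 24 h, and 14271, 12765, 11347, 12997 and 12536 in vehicle and 6912, 7830, 7086, 7406 and 8932 in BNF at 48 h. Vehicle and treated arrays were apart at both times, and the treated arrays of the 2 times overlapped. The repression was 2.36-fold at 24 h and 1.68-fold at 48 h (time difference 0.49, SE 0.08, adjusted p = 0.00113). Scd and Acly were the only called genes of 28 measured in fatty acid and triglyceride synthesis, and 0 of 20 cholesterol synthesis genes was called. Rdh7, a retinol and steroid dehydrogenase, fell in both conditions and further under BNF (1.71-fold below vehicle at 24 h and 3.68-fold at 48 h, time difference -1.10, adjusted p = 3.62e-05).

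Other hepatocyte functions each contributed a few genes, where 0.380% of all genes were called higher and 0.408% lower. In bile acid synthesis and transport, Abcb11, the bile salt export pump, was lower (-0.59, adjusted p = 0.00191) and Abcc3 higher, of 24 genes. In plasma carriers, Apoc2, a cofactor of lipoprotein lipase, was lower (-0.54, adjusted p = 0.0118) and Fetub, a protease inhibitor of the fetuin family, higher, of 22. Of 24 coagulation and complement genes, C4bpa (-0.57, adjusted p = 0.0148) and F9 (-0.39, adjusted p = 0.0154) were lower. Of 40 genes of the urea cycle and amino acid catabolism, Cps1, the first enzyme of the urea cycle, was lower (-0.62, adjusted p = 0.00285) and Mat1a, which makes S-adenosylmethionine, higher (0.42, adjusted p = 0.0105). In that list 34 genes were called lower at 24 h, against 10.4% of all genes, and 32 at 48 h, against 8.62%. Its median time difference was 0.023, beside -0.015 for all genes.

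Fetub had vehicle signals of 22945, 21627, 22779, 20517 and 23459 at 24 h and 13753, 12020, 14068, 12734 and 14221 at 48 h. In 100 uM BNF they were 24612, 25688, 28564, 22338 and 23055 at 24 h and 22168, 23160, 23480, 22700 and 24555 at 48 h. Only the vehicle arrays at 48 h stood apart, 1.67-fold below those at 24 h, while the treated arrays of the 2 times overlapped each other and the vehicle arrays at 24 h. The time difference was 0.64 (SE 0.09, adjusted p = 3.06e-05).

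Several of these calls, and 3 of marker genes described below, did not hold with each array centred on its median signal: Abcb11, Apoc2, Asgr2, C4bpa, Cd14, Cps1, F9, Fabp1, Lyz2, Mat1a and Scd (adjusted p 0.0609 to 0.339), each with its direction kept. Cps1 also lost its call with the mean of its 2 probe sets (adjusted p = 0.162).

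A few genes outside the lists had time differences among the 12 highest or lowest. Wfdc21, a secreted protein with a whey acidic protein domain, had vehicle signals of 27924, 29118, 27919, 27278 and 28050 at 24 h and 19884, 18119, 19804, 19705 and 20499 at 48 h. In 100 uM BNF its signals were 21986, 26823, 24967, 23898 and 25232 at 24 h and 7408, 9436, 9000, 8975 and 8212 at 48 h. All 4 groups were apart, and the gap to vehicle widened from 1.14-fold to 2.28-fold (time difference -0.998, adjusted p = 1.05e-08). Depp1, a FOXO target that acts on autophagy, was lower (-0.84, adjusted p = 1.87e-05).

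Cd9, a tetraspanin of the cell surface, reversed. It read 8404, 7991, 6571, 8169 and 8717 in vehicle and 11250, 11792, 12584, 10578 and 11807 in 100 uM BNF at 24 h. At 48 h it read 5794, 4541, 6654, 5422 and 9097 in vehicle and 4590, 4331, 4210, 4368 and 4196 in BNF. The treated arrays all lay above vehicle at 24 h, and at 48 h they lay at the low end of the vehicle range with 1 treated array overlapping it (1.46-fold higher, then 1.41-fold lower; time difference -1.04, SE 0.16, adjusted p = 0.000210). Flna, an actin cross-linker, was the other called gene of 40 in the cytoskeleton and matrix list (0.86, adjusted p = 0.0303), against 0.788% of all genes called. The call of Flna ended without any 1 of 9 arrays (vehicle 24 h 1, 4 or 5, vehicle 48 h 2, 3 or 4, 100 uM 24 h 1 or 5, 100 uM 48 h 5), with adjusted p 0.0520 to 0.0726.

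Among the genes higher at 48 h, Aldh1l1, a folate enzyme, went from 1.20-fold below vehicle to 1.21-fold above it (time difference 0.53, adjusted p = 0.000161), and its arrays overlapped at 24 h and not at 48 h. Cited2, a transcriptional coregulator, was 1.89-fold below vehicle at 24 h and 1.04-fold below at 48 h (0.86, adjusted p = 0.0117). Aldh4a1 (0.74), Dhtkd1 (0.64), both mitochondrial enzymes of amino acid breakdown, and Fam149a (0.76), Zfp612 (0.63), Arfip1 (0.56) and Tmem120a (0.55) completed the 12 highest. Fam149a passed the signal filter for this ranking only through vehicle at 24 h, where its arrays read 846 to 977. In 100 uM BNF at 24 h and in both groups at 48 h they read 454 to 735. Repression was called at 24 h in Aldh4a1, Dhtkd1, Fam149a, Zfp612 and Tmem120a, and at 48 h it was still called in Dhtkd1 alone. Another probe set of Arfip1 went the other way (-0.12), 2 of 3 others of Ptprs, a receptor phosphatase with a time difference of -0.91, were above 0 (0.54 and 0.0093), and with probe sets averaged Arfip1, Fam149a, Ptprs and Zfp612 lost their calls (adjusted p 0.385 to 0.935). Fam149a also lost it without any 1 of 5 arrays (vehicle 24 h 1, 100 uM 24 h 1 or 4, 100 uM 48 h 1 or 5; adjusted p at most 0.0680) and in a fit of the 20 arrays alone (0.0579).

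**Figure D3:**
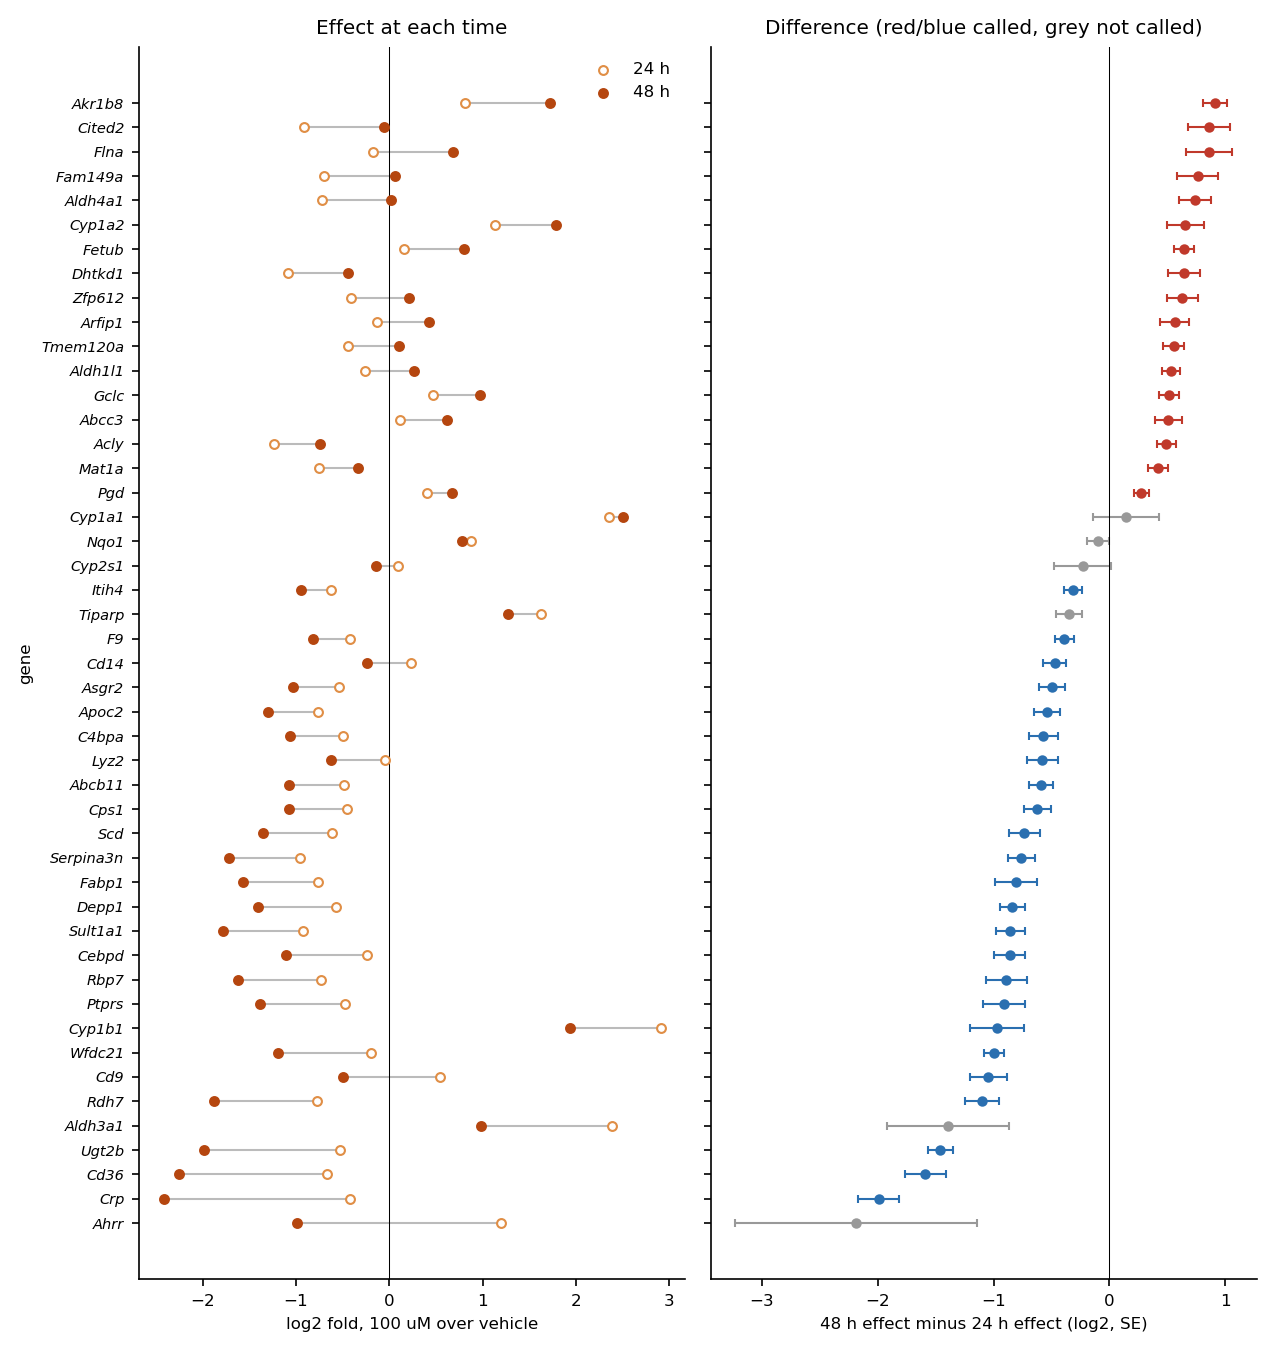
Left, log2 fold of 100 uM BNF over vehicle at 24 h (open) and 48 h (filled) for 47 genes chosen by rule; right, the time difference with its SE. The 17 red genes were called higher, the 24 blue genes lower and the 6 grey genes were not called, Ahrr and Aldh3a1 having the widest errors.

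Markers of other liver cells were mostly dim, with exceptions. Of 16 measured Kupffer cell markers, 2 had a lower time difference, against 0.408% of all genes. They were Cd14, an endotoxin co-receptor (-0.47, adjusted p = 0.0118), and Lyz2, lysozyme (-0.58, adjusted p = 0.0301). The summed signal of the 16 lay between 25917 and 29979 in vehicle and between 28410 and 33082 in 100 uM BNF at 24 h, and between 21157 and 23292 in vehicle and 17513 and 19654 in BNF at 48 h. The groups overlapped at 24 h and not at 48 h, but Cd14 (mean signal 12590) and Lyz2 (4065) made up most of this sum. Among the other members, Itgam (0.68), Aif1 (0.60), Fcgr2b (0.45) and C1qb (0.14) had time differences above 0, none of them called. No marker was at 0, but Itgam (mean signal 25.9) and Adgre1 (70.8) were near the bottom of the range. Lyz2 lost its call without any 1 of 10 arrays (vehicle 24 h 1 or 5, vehicle 48 h 1, 3 or 4, 100 uM 24 h 1 or 4, 100 uM 48 h 3, 4 or 5; adjusted p 0.0517 to 0.0703). Epcam, listed as a marker of bile duct cells, was lower by a small amount (-0.32, adjusted p = 0.00191), the 1 called of 10 cholangiocyte markers, against 0.788% of all genes called. It was bright (mean signal 10588), as was Anxa4 (7309), but Krt19 (33.6), Krt7 (12.2), Spp1 (49.7) and Cftr (151) were dim. Which cells gave the Epcam signal was not tested. Of the other markers, 0 of 20 stellate, 0 of 14 endothelial and 0 of 13 lymphocyte markers were called.

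Of 11 measured hepatocyte markers, 2 had a called time difference, against 0.788% of all genes. Cps1 and Asgr2, a subunit of the asialoglycoprotein receptor (-0.50, adjusted p = 0.0182), were lower and 0 higher. The summed signal of the 11 was between 348153 and 406525 in vehicle and 305010 and 395728 in BNF at 24 h, and between 304048 and 363924 in vehicle and 228558 and 288146 in BNF at 48 h. The groups overlapped at 24 h and not at 48 h. Sums of other lists were also apart at 48 h, such as oxidative phosphorylation (804519 to 880528 in vehicle, 694542 to 797823 in BNF). Those of the proteasome overlapped (566751 to 623560 and 589028 to 644505). In bulk RNA, fewer cells of a type and less RNA per cell cannot be told apart, and the part of either marker list in the time differences was not tested.

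The time difference of a gene is also the change from 24 to 48 h under BNF minus that in vehicle. Over all genes, 17.2% were called between the times in vehicle (8.64% higher and 8.60% lower) and 17.1% under 100 uM BNF (8.89% higher and 8.26% lower; 1501 higher and 579 lower with median centring). Of the 112 genes, 33 were called over time in vehicle only, 36 under BNF only and 43 in both. Among the 54 with a higher time difference, 31 fell over time in vehicle and 28 rose under BNF, while among the 58 with a lower one, 48 fell under BNF. The median change of the higher genes was -0.26 in vehicle and 0.25 under BNF, and of the lower genes 0.022 in vehicle and -0.60 under BNF. The 112 genes were selected by the difference of these same changes, so a gap between vehicle and BNF is built in. The counts and medians thus describe the form of the difference and are not separate evidence for it.

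**Figure D4:**
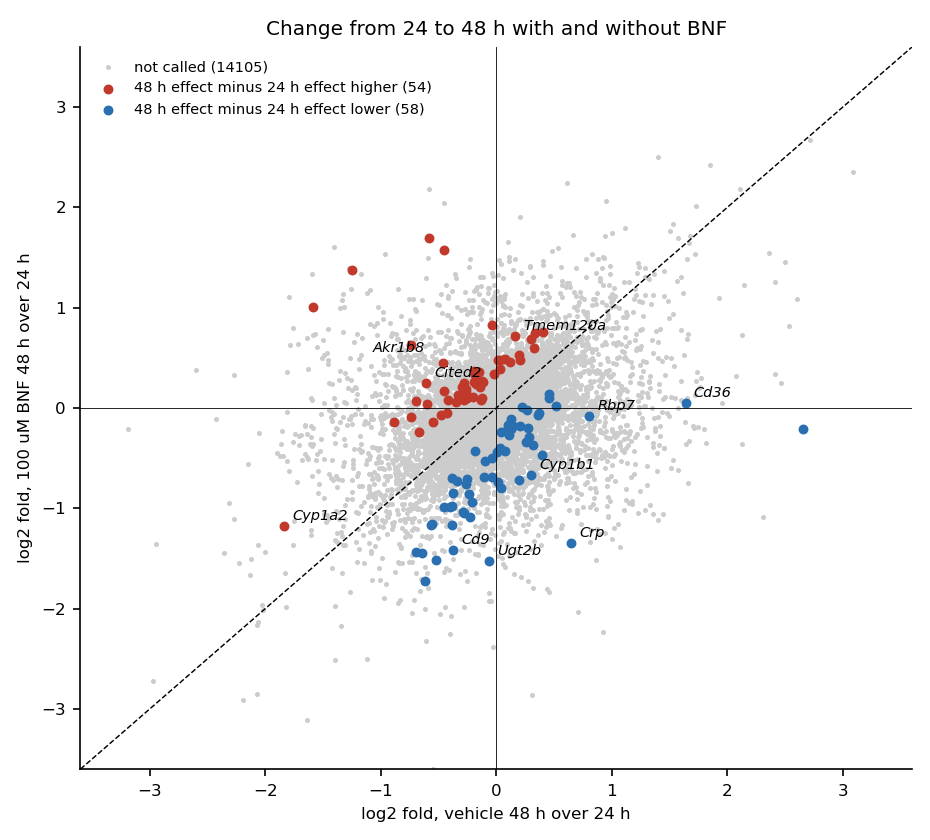
Log2 change from 24 to 48 h in vehicle (horizontal) against 100 uM BNF (vertical) for the genes tested, red and blue as called for the time difference. Blue genes lie below the dashed line of equal change, most of them with a fall under BNF, whereas Cd36 and Rbp7 rose in vehicle with little change under BNF.

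Fewer genes were called at the lower dose. The same difference computed for 1 uM BNF was called in 13 genes, or 0.0914% (7 higher and 6 lower), and 1319 genes had an unadjusted p below 0.05. The count was 23 after quantile normalization and 0 with median centring. It shares its vehicle arrays with the 100 uM difference, so the values stand side by side only. For Crp they were -0.38 at 1 uM and -1.99 at 100 uM, for Ugt2b -0.29 and -1.46, for Cd36 -0.11 and -1.59, and for Akr1b8 0.04 and 0.91. Acly stood at 0.50 and 0.49 and was called at both doses, with its 1 uM call lost under median centring. Of the 112 genes, 99 had a time difference of the same sign at 1 uM, and 8 were called there. The median 1 uM value was 0.27 in the 54 genes called higher at 100 uM and -0.14 in the 58 called lower. The shared vehicle arrays alone pull the 2 doses to the same sign, so these counts do not measure how alike they were.

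A direct test between the doses asked whether 100 uM and 1 uM diverged between 24 and 48 h. It called 50 genes, or 0.352% (18 higher and 32 lower), and 16 with median centring. It uses no vehicle array but shares all 10 arrays of 100 uM BNF with the time difference, so its values also stand side by side only and are not independent support. The divergence was -1.61 for Crp, -1.48 for Cd36, -1.17 for Ugt2b, -0.98 for Cd9 and Fabp1 each and -0.86 for Sult1a1, and it was 0.95 for Cited2, 0.86 for Akr1b8, 0.51 for Gclc and 0.39 for Fetub, all called by limma after adjustment over 14217 genes. For Acly it was -0.01, for Cyp1a2 0.17 and for Cyp1b1 -0.82 (SE 0.24, adjusted p = 0.188), none of them called.

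The remaining lists had no or 1 called gene. Rsad2, an antiviral enzyme, was higher (0.44) and the 1 called of 23 interferon response genes, where 0.380% of all genes were called higher and 0.408% lower. None was called among 18 genes of glucose and glycogen metabolism, 24 chemokines and inflammation genes, 17 p53 targets, 38 genes of ER stress, 17 heat shock genes, 34 cell cycle genes, 34 of oxidative phosphorylation, 33 ribosomal proteins, 29 of ribosome biogenesis, 30 of the proteasome, 19 clock genes and 18 of the IGF axis. In glucose and glycogen metabolism 12 genes were called lower at 24 h and 11 at 48 h, against 10.4% and 8.62% of all genes. In the proteasome 19 were called higher at 24 h and 15 at 48 h, against 10.7% and 8.79%. Their median time differences were -0.079 and -0.044.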

How the data were processed

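The deposited values are linear signal intensities per probe set of 30 Affymetrix rat arrays, which the authors computed by MAS5 (version not given) per the submitters' processing notes; each array's mean, trimmed by 2% at each end, lay between 1500.54 and 1500.60. Of 31099 probe sets, 57 controls, 436 with several gene symbols and 9780 with none were left out. Each of 14217 genes was represented by its brightest probe set, by mean log2 over all arrays.

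Log2 signals were fitted in limma 3.58.1 (R 4.3.3) with 6 group means over all 30 arrays and a mean-variance trend. P-values were adjusted per contrast (Benjamini-Hochberg, 14217 genes), with calls made at 0.05. The fit was also run on simulated data with independent normal noise in each gene. Those data held no outlying arrays, array-wide shifts or shared sets, so the run does not cover these. A fold is a ratio of geometric means; array values and means are linear. Promoters are from RefSeq (GRCr8). Arrays without detection calls give no limit of detection here, and 5 arrays per group limit the precision.

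The contrast, the gene lists and the rule for named genes were chosen with earlier results of these data known. Named were all AhR battery members, the 12 highest and 12 lowest called genes with a group mean above the median signal of all genes, and up to 4 genes by adjusted p from each of the 35 lists with at least 2 called; others were chosen after their values were seen. The alternatives tried changed the arrays fitted, variance prior, array weights, normalization, pseudocount, filter on dim genes, probe set, array order, sets of array numbers as a block and single arrays.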

Additional observations from a re-analysis of the deposited data

Results flagged for a closer look

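The effect of 100 uM BNF differed between 24 and 48 h by the interaction test in 112 genes. Among the named genes with a lower time difference, the log2 values were -1.99 for Crp, -1.59 for Cd36, -1.46 for Ugt2b, -1.10 for Rdh7, -1.04 for Cd9, -0.998 for Wfdc21, -0.97 for Cyp1b1, -0.91 for Ptprs, -0.89 for Rbp7, -0.86 for Cebpd and Sult1a1 each, -0.84 for Depp1 and -0.81 for Fabp1. Smaller ones were -0.76 for Serpina3n, -0.74 for Scd, -0.62 for Cps1, -0.59 for Abcb11, -0.58 for Lyz2, -0.57 for C4bpa, -0.54 for Apoc2, -0.50 for Asgr2, -0.47 for Cd14, -0.39 for F9 and -0.32 for Itih4. Higher ones were 0.91 for Akr1b8, 0.86 for Cited2 and Flna each, 0.76 for Fam149a, 0.74 for Aldh4a1, 0.66 for Cyp1a2, 0.64 for Fetub and Dhtkd1 each, 0.63 for Zfp612, 0.56 for Arfip1, 0.55 for Tmem120a, 0.53 for Aldh1l1, 0.51 for Gclc and Abcc3 each, 0.49 for Acly, 0.42 for Mat1a and 0.28 for Pgd.

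A single array lay far from the other 4 of its group, by Dixon's criterion at 95%, in 9 of 188 gene and group combinations, and chance flags about 5% of them. Vehicle 48 h array 5 was such in 3 of the 9: Cited2 at 11095 (others 6323 to 6960), Depp1 at 36751 (others 26493 to 28646) and Fam149a at 454 (others 567 to 611). Without that array 154 genes were called for the time difference, 107 of the 112 among them. In vehicle, Apoc2 read 10811 in 48 h array 2 (others 12781 to 13501) and the dim Ahrr 304 in 24 h array 2 (others 12.3 to 64.0). In 100 uM BNF, Ahrr read 220 in 48 h array 1 (others 10.1 to 69.0), Cyp1a1 38665 in the same array (others 52142 to 55182), Cd36 803 in 48 h array 4 (others 615 to 653) and Depp1 17133 in 24 h array 4 (others 19469 to 19988).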

How the results depend on the processing

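All 112 called genes kept the direction of their time difference in every setting run with the same probe sets (105 of 105 where dim genes were left out), and 107 of 112 did with the mean of all probe sets of a gene. Calls were less stable: the count ranged from 89 to 154 with 1 array left out, and 79 genes (35 higher, 44 lower) stayed called without each of the 20 arrays in turn. With each array centred on its median, 47 genes were called, 44 of them among the 112, and without genes below the median signal 174 were called, where fewer genes were tested. For the 1 uM difference, 23 genes were called after quantile normalization and 0 with median centring by limma, beside 1319 at an unadjusted p below 0.05 in the reported fit, and for the difference between doses 16 with median centring; the cause was not tested. Without the mean-variance trend Abcc3, Cyp1a2, Cyp1b1, Itih4, Lyz2 and Pgd lost their calls (adjusted p 0.0636 to 0.0936), and with the 20 arrays alone Cyp1a2, Fam149a, Itih4 and Lyz2 did (0.0524 to 0.0876). A fit of the 20 arrays alone holds no 1 uM arrays and was not run for the last 2 comparisons. Of 52 other probe sets of 37 called genes, looked at after seeing the data, 32 went the same way (4 called) and 20 the other (0 called). Among those 20 were Arfip1 at -0.12, Ptprs at 0.54 and 0.0093, Exoc1 at 0.94, 0.30 and 0.13, and Gcdh at -0.87 and -0.17. The array numbers in the titles run in 5 sets of 6 with 1 array of every group, which the labels do not call a batch. With these sets as a replicate block, added after seeing the data, 130 genes were called, 104 of the 112 among them, and Itih4 was not (adjusted p 0.0653). As a check of pairing, residuals of 75 same-set pairs of arrays correlated at -0.04 to 0.11 (1 above 0.1), against -0.10 to 0.11 in 300 pairs from different sets (1 above 0.1). The best match of an array in another group lay in its own set for 12 of 30 arrays, where a random choice would fall there 1 time in 5. Some pairing within sets is thus not excluded. The median standard error of a time difference was 0.20 on the log2 scale, and dim genes had wider errors.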

Other observations

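The following called genes belong to no list and were chosen after their values were seen. Ceacam1, a cell adhesion molecule of the bile canaliculus, had mean signals of 3356 in vehicle and 7978 in 100 uM BNF at 24 h, and of 3137 and 5522 at 48 h. Its arrays did not overlap at either time, and its induction fell from 2.38-fold to 1.76-fold (limma adjusted p of the time difference 0.000255). Sprr1a, a squamous and stress-linked protein, was 1.84-fold above vehicle at 24 h and not called at 48 h (time difference -0.74). It was also called at 1 uM, at -0.60. Gpc4, a heparan sulfate proteoglycan of the cell surface, went from 1.51-fold to 2.28-fold below vehicle, and Cyp2d3, a drug-metabolising P450, from 1.51-fold to 2.59-fold below. Cyp2d genes are closely related, so its probe set may also read neighbours.

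Another 4 mitochondrial enzymes with weaker repression at 48 h were also picked after their values were seen, and they stand for no pathway: the urea cycle and amino acid list had a median time difference of 0.023, and Cps1 in it went the other way (-0.62). Dhtkd1, which acts on the breakdown product of lysine, was 2.12-fold below vehicle at 24 h and 1.36-fold at 48 h, and Gcdh, which follows it in the same pathway, 1.51-fold and 1.14-fold. The other probe sets of Gcdh gave time differences of -0.87 and -0.17, neither called, against 0.41 for the one used. Suclg1, a subunit of succinyl-CoA ligase, was 1.44-fold below vehicle at 24 h and was not called at 48 h (1.05-fold). Aldh4a1, of proline breakdown, was 1.65-fold below at 24 h and level with vehicle at 48 h, with means of 1226 in vehicle and 1237 in BNF. In each of these 4 genes the vehicle mean was lower at 48 h than at 24 h, and these genes were not tested as a set.

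Creb3l3, a liver transcription factor of the fasting response, was 1.71-fold and 1.28-fold below vehicle while its signal rose over time in both conditions. Epas1, a hypoxia-inducible factor that also pairs with ARNT, was 1.40-fold below vehicle at 24 h and was not called at 48 h. Among the 13 genes called at 1 uM, Meox1 and Adgrb2 stood at 3.82 (SE 0.73) and 2.50 (SE 0.51). At 100 uM they stood at 1.37 and 0.40, where neither was called. Both genes were dim, with group means from 8.9 to 50.2 for Meox1 and from 23.7 to 85.0 for Adgrb2. Both doses share the vehicle arrays, and no 1 uM call was kept with median centring.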
